A study of Schmidtea mediterranea with 9 samples.

Results

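The transcripts described here were lower in planarian stem cells after an amputation on either side of the sampled tissue than in uninjured animals. They were 79 of the 46724 assembled components, groups of contigs that stand in for genes, to which the reads of the planarian Schmidtea mediterranea had been assigned. They were chosen from the measured values: a mean of 5 to 500 CPM (reads scaled to a common total per library, taken over all mapped reads without the most abundant component), all 6 wounded libraries below all 3 controls, and a log2 ratio of the group means of at most -0.4 for both wounds. Of the 9333 components in that range of levels, 222 (2.38%) had every wounded library below every control, and 79 (0.846%) also met the ratio in both wounds. Of the other 143, 44 missed the ratio only after head amputation, 18 only after tail amputation and 81 after both. The mirror rule, with every wounded library above every control, separated 272 components, of which 54 met the ratio upward in both wounds. Because the rule used all 9 libraries, the levels and ratios against the control are a description of how the members were chosen, and no test supports them. The deposited files do not pair components with gene names or sequences, so each is given by its identifier and contig length, and neither gene roles nor neoblast markers could be read from it.

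Planarians regrow lost body parts from neoblasts, the dividing stem cells scattered through the body between gut and skin. After an amputation these cells divide, gather near the wound and give rise to progenitors of the missing tissues, so a sorted neoblast population holds cycling stem cells and cells already on the way to a fate. The gate used here, called X1, takes cells whose nuclear dye signal shows replicated DNA, and it therefore selects cells by cell cycle phase rather than by fate. A transcript can fall in such a population because each cell holds less of it or because fewer of the sorted cells hold it, and RNA from a pool of cells cannot tell these apart.

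Poly(A) RNA came from X1 cells of starved animals of the asexual strain, and in all groups the cells came from pre-pharyngeal tissue. The 3 control libraries came from uninjured animals at 0 h. The 3 anterior libraries came from animals whose head had been cut off 48 h earlier. The 3 posterior libraries came from animals that had lost tail and pharynx 48 h earlier, called tail amputation here. The labels give neither the number of animals per library nor an uninjured group at 48 h, so the wound and the elapsed time cannot be told apart, and replicates may be technical.

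Control replicate 1 stood apart from the other libraries. It had 14674800 mapped reads where the others had 17017960 to 23700877, and 11.4% of its reads were unmapped where the others had 3.96% to 5.46%. Its most abundant component took 9.19% of the mapped reads, against 12.5% to 16.9% elsewhere. The summed levels, the median ratios and the counts of calls are also given without it.

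Summed over all 79 components, the controls stood at 4796, 3379 and 3473 CPM in replicates 1 to 3. The anterior libraries stood at 2721, 2602 and 2639 CPM and the posterior libraries at 2555, 2285 and 2566 CPM. Every wounded sum lay below every control sum, as the rule requires of each member, and control replicate 1 lay well above the other controls. By CPM without further scaling, all 3 posterior sums lay below the anterior ones. This order was not computed under another scaling. The group means were 3883 ± 792 CPM in the controls, 2654 ± 60.7 CPM after head amputation and 2469 ± 159 CPM after tail amputation (SD, n = 3 each). The wounded means were 68.3% and 63.6% of the control mean, or 77.5% and 72.1% of the mean of control replicates 2 and 3 alone. The members took between 0.229% and 0.480% of the reads behind the CPM values. The 6 members with a mean of at least 100 CPM made up 53.99% of their summed mean level, and without them the sums were 2151, 1663 and 1687 CPM in the controls and 1050 to 1235 CPM in the wounded libraries.

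**Figure D1:**
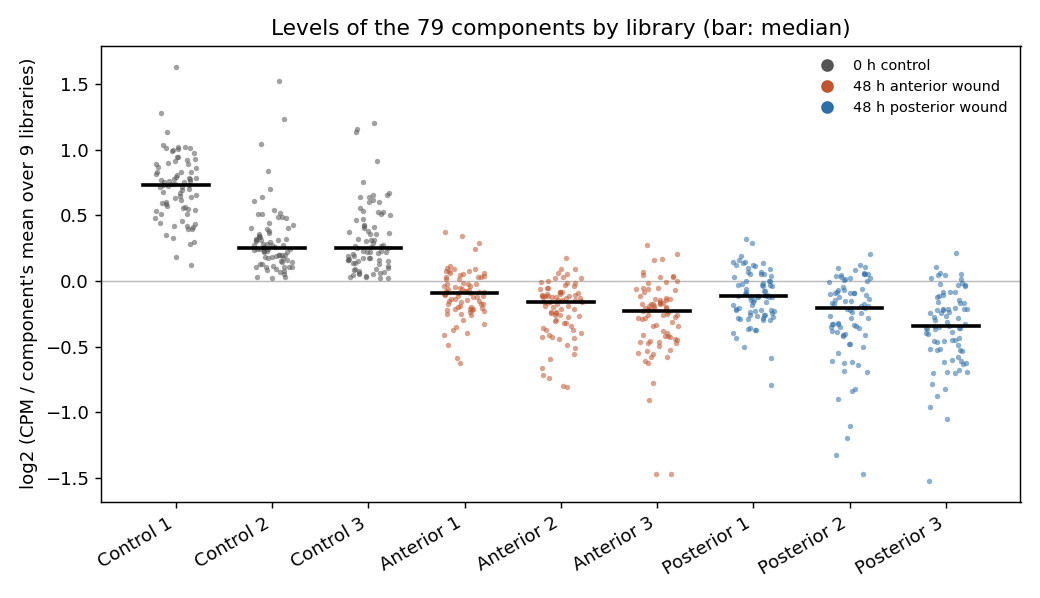
Level of each of the 79 components in each library, as log2 of its CPM over its own mean of the 9 libraries (vertical axis), with a bar at the median. Control 1 has the highest median, at 0.73, controls 2 and 3 both stand at 0.25, and the 6 wounded libraries lie between -0.34 and -0.09.

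The falls were mostly modest. After head amputation the median member stood at 67.7% of its control mean (range 34.8% to 75.6%), and after tail amputation at 65.1% (range 33.7% to 75.5%). The median log2 ratio was -0.56 for head amputation and -0.62 for tail amputation, where over all components of the same range of levels the medians were -0.00 and 0.05. A log2 ratio of at most -1 was reached by 8 members after head amputation, by 14 after tail amputation and by 6 after both. Without control replicate 1 these counts were 7, 8 and 4. At the other end, comp3319_c0 (-0.40 anterior, -0.51 posterior) and comp1934_c0 (-0.40 and -0.52) were just inside the ratio, while comp8914_c0 (-0.399 and -0.65) and comp10228_c0 (-0.40 and -0.397) were just outside. For comp1934_c0 the group means were 24.6, 18.6 and 17.1 CPM, and for comp8914_c0 28.6, 21.7 and 18.2 CPM, in the order control, anterior, posterior. The values just inside and just outside the limit thus lay close together. Most members were of low to middling level: 32 had a mean of 5 to 10 CPM, 20 of 10 to 20 CPM, 14 of 20 to 50 CPM, 7 of 50 to 100 CPM and 6 above. These are 1.88%, 1.08%, 0.515%, 0.427% and 0.420% of the components at those levels, so the rule took a larger share of the low components.

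**Figure D2:**
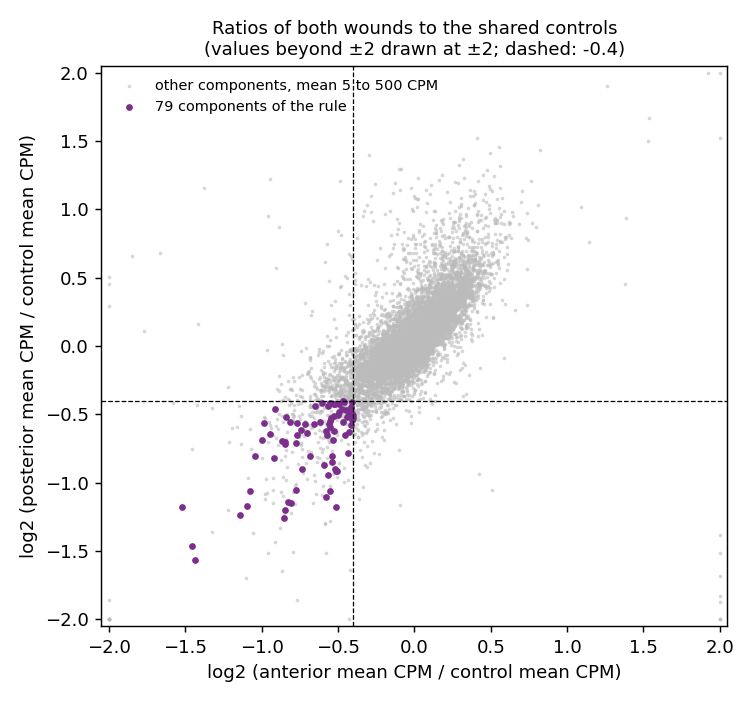
Log2 ratio of the group mean CPM over the control mean CPM, for head amputation (horizontal) and tail amputation (vertical), at the components with a mean of 5 to 500 CPM. Both axes share the same 3 controls, which alone makes the cloud slope upward. The 79 members fill the corner below -0.4 on both axes, with the lowest at -1.52 (anterior) and -1.57 (posterior).

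The lowest ratios over both wounds were those of comp343_c0 and comp452_c0. For comp343_c0 (1384 bases), the controls stood at 15.5, 5.35 and 11.1 CPM, the anterior libraries at 4.68, 2.83 and 4.29 CPM and the posterior libraries at 4.97, 1.79 and 4.02 CPM. Its controls spread widely, and the lowest control lay only 1.08 times above the highest wounded library. The fall was 2.70-fold after head amputation and 2.96-fold after tail amputation. For comp452_c0, with 4 contigs of which the longest has 1704 bases, the controls stood at 25.7, 38.8 and 19.4 CPM, the anterior libraries at 12.5, 13.2 and 4.87 CPM and the posterior libraries at 7.76, 13.9 and 8.77 CPM. Here control replicate 2 was the highest, and the lowest control lay 1.39 times above the highest wounded library. Its levels fell 2.75-fold and 2.76-fold. Without control replicate 1 its log2 ratios were -1.51 and -1.52, while those of comp343_c0 moved from -1.44 and -1.57 to -1.07 and -1.20.

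The widest gaps between the lowest control and the highest wounded library were at comp1744_c0 and comp3037_c0. The low-level comp1744_c0 (4 contigs, longest 529 bases) had controls at 8.18, 7.88 and 7.77 CPM, anterior libraries at 4.97, 5.25 and 4.61 CPM and posterior libraries at 5.04, 4.03 and 4.57 CPM. The controls had an SD of 0.211 CPM, and the gap between the lowest control and the highest wounded library was 1.48-fold. This component was picked for its gap and had as few as 63 reads in a library. The part of counting error in so small an SD was not tested. For comp3037_c0 (1627 bases) the controls were at 21.0, 14.8 and 15.5 CPM, the anterior libraries at 9.60, 10.1 and 8.84 CPM and the posterior libraries at 8.85, 6.92 and 6.55 CPM. Its gap was 1.46-fold, and it stood at 55.7% and 43.5% of the control mean. Gaps this wide were rare among the members. The median gap was 1.08-fold, 46 members had a gap under 1.1-fold and 0 one of at least 1.5-fold. The narrowest was at comp5317_c0, where the lowest control stood at 198.71 CPM and the highest wounded library at 198.66 CPM, a gap of 1.0003-fold that is smaller than counting error.

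**Figure D3:**
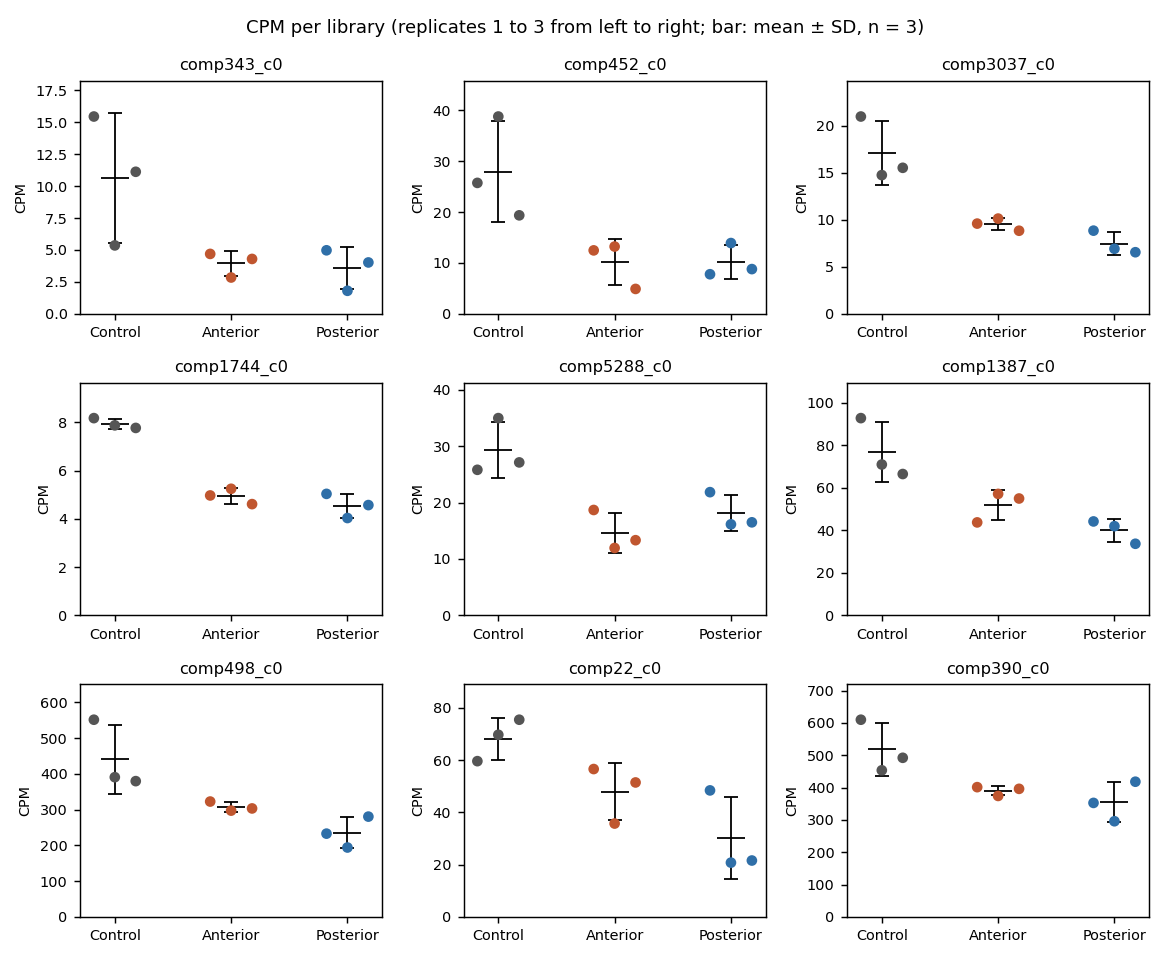
CPM in each library (points, replicates 1 to 3 from left to right) with the mean and SD of each group (n = 3) for 9 members, on axes that start at 0. At comp1744_c0 the controls lie close together between 7.77 and 8.18 CPM, while at comp343_c0 they spread from 5.35 to 15.5 CPM. At comp22_c0 posterior replicate 1 stands at 48.4 CPM, above posterior replicates 2 and 3.

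The members with the highest CPM were comp390_c0 (2023 bases) and comp1737_c0 (2 contigs, longest 2492 bases). The controls of comp390_c0 stood at 609.7, 453.3 and 491.9 CPM, its anterior libraries at 401.1, 373.9 and 395.9 CPM and its posterior libraries at 352.4, 295.7 and 418 CPM. The highest wounded library was posterior replicate 3, 1.08-fold below the lowest control. The controls of comp1737_c0 stood at 632.7, 354.7 and 352.3 CPM, with 329.1, 304.8 and 334.7 CPM after head amputation and 298.4, 272.9 and 337.8 CPM after tail amputation. At this component control replicate 1 alone was high: the log2 ratios were -0.47 and -0.56 with it and -0.13 and -0.22 without it. Per kilobase of the longest contig, comp498_c0 (1551 bases) led the members at 211 CPM per kilobase, next to 208 for comp390_c0, and the median member stood at 9.74. Control replicate 1 was the highest control at all 6 members of at least 100 CPM, and posterior replicate 2 was the lowest wounded library at 5 of them.

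The dependence on control replicate 1 held for most members. It was the highest control at 65 of the 79 (82.3%), and at 36.5% of the components of the same range of levels. Its level was 1.39 times the mean of control replicates 2 and 3 at the median member, where the median over that range was 0.940. Without it the median log2 ratio of the members was -0.43 for head amputation and -0.41 for tail amputation, and 33 of the 79 still stood at -0.4 or lower in both. Of the 65 members at which it was the highest control, 20 did so, and of the 14 at which control replicate 2 or 3 was the highest, 13. Leaving out the highest control always lowers the control mean, so the ratios of the 65 had to move towards no change. For the 14 the direction was not fixed in this way, so the 2 counts are no test of control replicate 1. Those 14 had median log2 ratios of -0.55 and -0.75, and the 65 had -0.56 and -0.62. The rule used the mean of all 3 controls, which a single high control raises. The part of this choice, and of the depth and unmapped reads of control replicate 1, in these values was not tested.

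**Figure D4:**
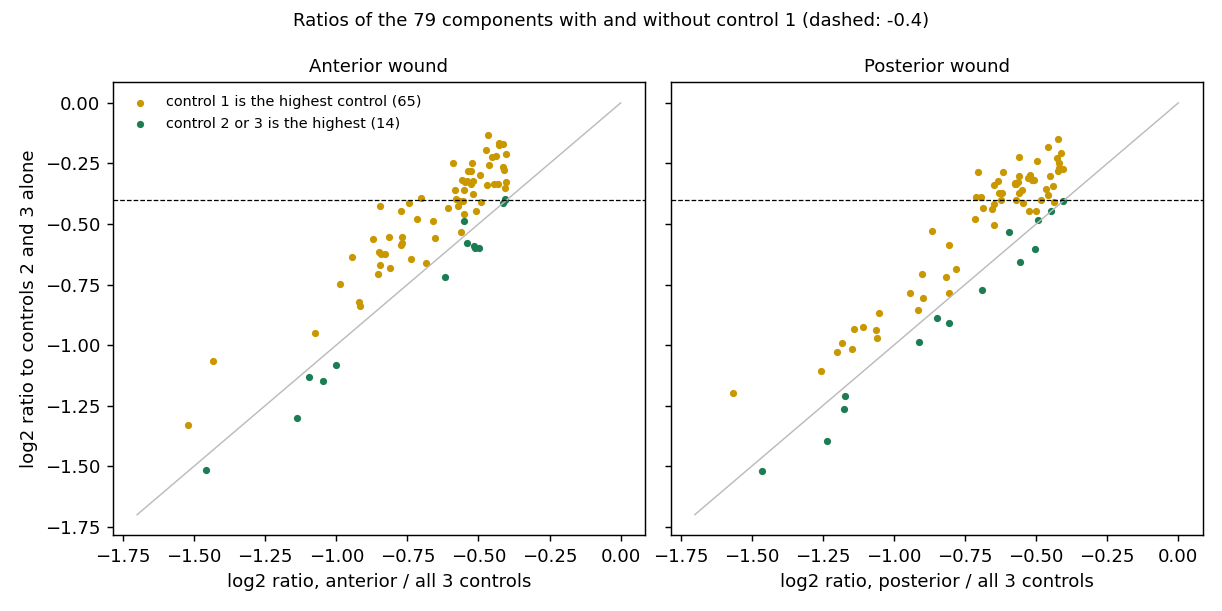
Log2 ratio of each wound to the mean of control replicates 2 and 3 (vertical) against the ratio to all 3 controls (horizontal) for the 79 members, with the line of equality in grey. The 65 members at which control 1 is the highest control lie above the line, closer to no change. Leaving out the highest control must move them that way, and 33 of the 79 members stay at or below -0.4 in both wounds.

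Length and contig number did not enter the rule. The longest contig of a member had a median of 1522 bases (range 407 to 4859), against 1350 bases over the components of the same range of levels. Several contigs were present at 25 members (31.6%), against 38.2% over that range. The longest members of 1 contig were comp6600_c0 (4859 bases) and comp10978_c0 (4098 bases), and the shortest comp1308_c0 (517 bases) and comp12300_c0 (611 bases). At comp10978_c0 the controls stood at 66.9, 34.9 and 31.6 CPM and the wounded libraries between 23.5 and 29.6 CPM, and control replicate 1 was 2.01 times the mean of the other controls, the highest such value of the members. At comp12300_c0 control replicate 3 was the highest instead, with controls at 6.45, 5.75 and 10.6 CPM and wounded libraries between 2.72 and 5.31 CPM. At comp6600_c0 the controls stood at 126.6, 88.2 and 78.1 CPM and the wounded libraries between 54.5 and 76.6 CPM.

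The contigs of a member mostly had the same direction. The 25 members with several contigs held 135 contigs, of which 104 had a mean of at least 1 CPM. At 102 of these 104, both wound means were below the control mean, and at 45 every wounded library was below every control. The rule acted on the summed counts of these contigs, so a shared direction follows in part from the choice of members. The share of a member's reads on its leading contig changed by over 10 percentage points at 0 of the 25. The change against the controls ran from -5.82 to 5.59 percentage points after head amputation and from -8.00 to 8.62 after tail amputation. The members with the most contigs were comp2663_c0 (28) and comp5317_c0 (19). At comp5317_c0 the leading contig of 3567 bases held 11.7% of the reads in the controls, 11.1% after head amputation and 11.3% after tail amputation. At comp2663_c0 the leading contig of 884 bases held 11.5%, 13.1% and 13.1%. Its share ran from 9.03% to 13.3% over the control libraries and from 9.52% to 19.9% over the posterior libraries, so the groups overlap. Reads shared by similar contigs may be split between them in counting, so these shares are uncertain.

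In a fit of all 21322 components that passed a filter on low counts, edgeR's quasi-likelihood test gave no member an adjusted p of at most 0.05 against the control. Lower calls at that threshold made up 0.0% of all components for either wound. At an unadjusted p under 0.05, 57 members were lower after head amputation and 73 after tail amputation, where 2.66% and 3.32% of all components were lower. The rule used the same contrast, so these counts say how the members were picked and nothing more. They rest in part on single libraries. Without control replicate 1 they were 34 and 44, without anterior replicate 3 the count after head amputation was 33, and without posterior replicate 2 the count after tail amputation was 45. The filter passed a different number of components in each of these fits, and the share of all components at this threshold was not counted in them. The fitted median log2 fold change of the members was -0.53 after head amputation and -0.65 after tail amputation, and that of all components tested was -0.03 for both. The median standard error was 0.22 for either wound. The lowest p after head amputation belonged to comp5288_c0 (1408 bases) and comp4857_c0 (2543 bases). At comp5288_c0 the controls stood at 25.8, 35.0 and 27.1 CPM, the anterior libraries at 18.7, 11.9 and 13.3 CPM and the posterior libraries at 21.8, 16.1 and 16.5 CPM. Its log2 fold change by edgeR was -0.97 (SE 0.22, adjusted p = 0.965) after head amputation and -0.73 (SE 0.22, adjusted p = 0.723) after tail amputation. At comp4857_c0 the controls stood at 115.2, 78.2 and 75.8 CPM, with 41.8, 59.5 and 48.7 CPM after head amputation and 69.3, 67.4 and 50.8 CPM after tail amputation. The lowest p after tail amputation belonged to comp1387_c0, at a log2 fold change by edgeR of -0.99 (SE 0.16, adjusted p = 0.167), and comp3037_c0, at -1.24 (SE 0.21, adjusted p = 0.171). DESeq2, run as an alternative on the same counts, called 2 members lower after head amputation, comp316_c0 and comp5288_c0, and 14 after tail amputation. It called 0.113% and 0.352% of all components in either direction. Among the 14 members the lowest adjusted p was that of comp3037_c0 (0.00011). Without control replicate 3, edgeR called 10 members lower after tail amputation, where 1.29% of all components were called in either direction, and with any other single library left out it called 0. With the replicate number as a block it called 1 after tail amputation, comp1757_c0 (adjusted p = 0.0266). In that fit 8 of the 21322 components were called in either direction.

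The authors' deposited table, made with DESeq, listed all 79 members below the control in both wounds. The fold was 0.364 to 0.784 after head amputation and 0.331 to 0.775 after tail amputation. This table compares the same groups as the rule, so its directions and calls describe how the members were picked and do not support them. It called no member after head amputation and 3 after tail amputation, where lower calls made up 0.00221% and 0.0176% of the components listed with a value in the authors' deposited table. These were comp3037_c0 with a fold of 0.417 (adjusted p = 0.0143 in the authors' deposited table), comp22_c0 with 0.426 (0.0242) and comp540_c0 with 0.393 (0.0253), the last named after its values were seen. All 3 have 1 contig. The authors' summed counts repeat posterior replicate 2 in the column of posterior replicate 3 at every component of several contigs, and whether the posterior values in the authors' deposited table for the 25 such members rest on that repeated library was not tested.

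The order of the wounds was not fixed by the rule, and no member passed the test of the difference between them. By edgeR over all components, the lowest adjusted p for anterior against posterior was 1.00 among the members and 0.903 over all components. Calls at an adjusted p of at most 0.05 made up 0.0% of the components in either direction, and none were members. At an unadjusted p under 0.05, 3 members were higher after head amputation and 0 were lower, where 0.868% of all components were higher and 1.86% lower. In either direction this count was 10 without control replicate 1, 8 without posterior replicate 1, 7 without posterior replicate 3, 1 without anterior replicate 1 and 0 without posterior replicate 2. The share of all components at this threshold was not counted in those fits, so the counts cannot be set beside it. The median log2 difference of the members was 0.09, with 55 members higher and 24 lower after head amputation, and the median of all components tested was -0.00. By CPM without further scaling, the split was 44 and 35, while 69.9% of the components in the same range of levels were lower after head amputation. By edgeR 48.9% of those components were lower, so this share depends on the scaling. For 69 of the 79 members the 95% interval of the log2 difference lay within 1 in either direction, and the widest intervals reached from -1.14 at one member to 1.46 at another. For the other 10 members the interval held a 2-fold difference.

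**Figure D5:**
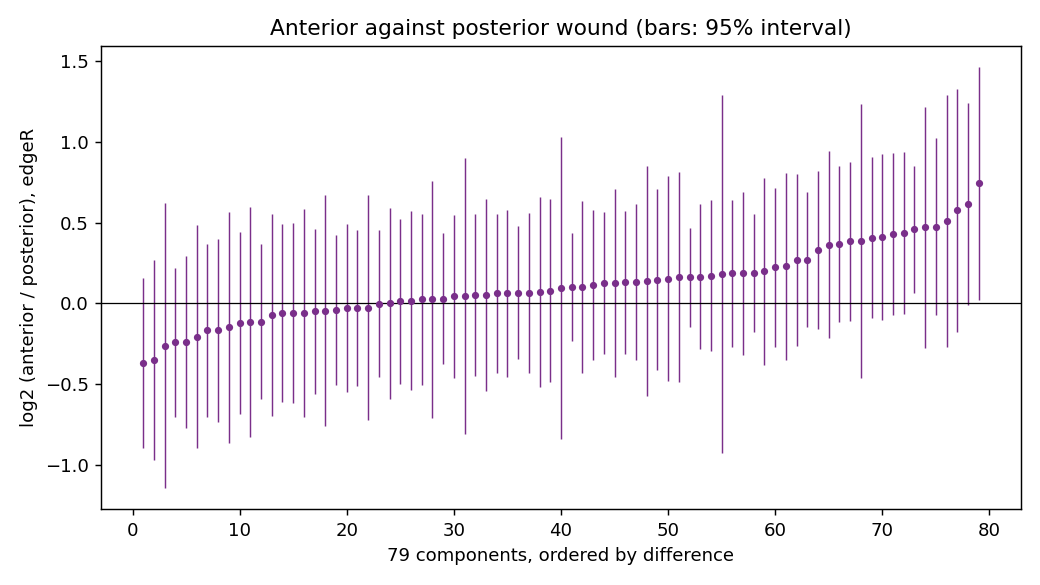
Log2 difference between the anterior and tail amputation by edgeR for each of the 79 members (points, ordered by size) with its unadjusted 95% interval (bars). The differences run from -0.37 to 0.74, and most intervals cross 0.

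By CPM, the anterior libraries lay above all posterior libraries at 7 members, where 2.78% of the components of the same range of levels did so, and below them at 1 member, where 12.0% did. These shares are by CPM without further scaling, by which 69.9% of those components were lower after head amputation, against 48.9% by edgeR. The same shares under another scaling were not computed, so members and range cannot be told apart here. Among the 7 members the largest differences were at comp1308_c0 and comp498_c0. At comp1308_c0 the controls stood at 8.55, 7.14 and 8.03 CPM, the anterior libraries at 5.71, 6.03 and 4.93 CPM and the posterior libraries at 4.90, 3.52 and 4.14 CPM. The log2 difference by edgeR was 0.47 (SE 0.22, adjusted p = 1.00). At comp498_c0 the controls stood at 551.4, 390.6 and 379.6 CPM, the anterior libraries at 322.5, 297.2 and 303.2 CPM and the posterior libraries at 232.8, 193.96 and 280.4 CPM. The 3 groups did not overlap, but the log2 difference of 0.43 between the wounds (SE 0.20, adjusted p = 1.00 by edgeR) did not pass. The 1 member with all anterior libraries below the posterior ones was comp1102_c0 (5 contigs, longest 502 bases), at 4.17, 3.38 and 3.33 CPM against 4.56, 5.31 and 4.69 CPM, from controls at 9.38, 6.74 and 5.44 CPM. Its log2 difference by edgeR was -0.35 (SE 0.25, adjusted p = 1.00).

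The lowest unadjusted p values between the wounds were at comp1387_c0 and comp22_c0. At comp1387_c0 (10 contigs, longest 986 bases) the controls stood at 92.7, 70.9 and 66.4 CPM, the anterior libraries at 43.6, 57.1 and 54.9 CPM and the posterior libraries at 44.1, 41.9 and 33.6 CPM. Anterior replicate 1 lay within the posterior range, and the log2 difference by edgeR was 0.46 (SE 0.16, adjusted p = 1.00). At comp22_c0 (704 bases) the controls stood at 59.6, 69.7 and 75.4 CPM, the anterior libraries at 56.6, 35.7 and 51.4 CPM and the posterior libraries at 48.4, 20.7 and 21.6 CPM. Here the wounds overlap, since posterior replicate 1 lay above anterior replicate 2, and the difference of 0.74 (SE 0.29, adjusted p = 1.00 by edgeR) rests on posterior replicates 2 and 3.

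The spread of the members within a group was wider than that of the components in the same range of levels. The median coefficient of variation of a member was 22.01% in the controls, 11.8% after head amputation and 14.9% after tail amputation, where over the range of levels it was 17.3%, 7.95% and 11.6%. The rule used these same libraries, and members were more often of low level than those components. The part of the choice of members and of counting error in this spread was not tested. Anterior replicate 1 was the highest of the anterior libraries at 43 members (54.4%, against 33.1% over the range), and posterior replicate 1 the highest of the posterior libraries at 35 (44.3%, against 21.95%). Posterior replicate 2, the highest of all wounded libraries at 36.9% of the components in the range, was so at 13 members (16.5%). These shares are by CPM without further scaling, and the rule kept only components whose highest wounded library lay below every control. The part of the scaling and of the rule in these shares was not tested.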

How the data were processed

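The labels group the samples, by title, into control, anterior and posterior wound, 3 libraries each. Bowtie2 2.0, SAMtools and DESeq are named in the submitters' processing notes; the assembler was not given in the sources used here. The authors deposited read counts per contig for each library, with contig lengths, a table of counts summed per component, and a DESeq table with, per the file headers, fold change (ratio) and p-value, whose columns of group means were not used. The deposited summed table repeats posterior replicate 2 in the column of posterior replicate 3 at all 7189 components of several contigs, so counts were summed here from the per-library counts. Unmapped reads stayed out of all totals. Of the columns of single samples, 0 could not be matched.

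These counts entered edgeR 4.0.16 under R 4.3.3 (TMM, filterByExpr with a minimum count of 10, 1 quasi-likelihood fit of 3 groups over 9 libraries, Benjamini-Hochberg over 21322 components, threshold 0.05). The procedure was run on data simulated with changes of at least 2-fold between the wounds, and the check compared the median fitted with the simulated fold change. The share of such changes that the test calls is not given here, so the check does not say what the test can detect. Smaller changes, such as the falls of most members against the control, were not simulated. The standard error is the log2 fold change over the square root of F, and 95% intervals use 6 residual degrees of freedom. These intervals are wider than the tests imply. At comp220_c0 the unadjusted p by edgeR between the wounds was 0.035, and the interval ran from -0.01 to 1.24. None of the replicates was merged, since each pair differed beyond counting error (chi-square over its degrees of freedom 5.66 to 56.2). At the lowest depth, 5 CPM is 66.6 reads, and members had at least 28 reads in a library. Alternatives were DESeq2 1.42.0, limma-voom (limma 3.58.1), other scalings, filters, a replicate block, 6-library fits and each library left out.

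The members and orderings were chosen with earlier results of these data known. Members were named by rule, up to 2 per ordering: ratio, level, difference between wounds, contig number, length, p, gap, edge of the ratio and the authors' calls. Marker lists could not be matched to components, so 0 lists were tested.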

Additional observations from a re-analysis of the deposited data

How the results depend on the processing

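The number of components lower after both wounds was 79 by the rule and stayed within 1.5 times under other scalings: 79 with the most abundant component in the total, 65 by TMM and 68 by DESeq2 size factors, of which 61, 45 and 52 were among the 79. Unsummed contigs gave 95, and the authors' summed counts gave 81. Without bounds on the level it was 551, with a log2 ratio of at most -0.6 it was 24 and with at most -0.2 it was 186, as the looser and stricter limits themselves bring. Leaving out 1 library gave from 57 to 263: 57 without control replicate 1 (31 of the 79 among them), 147 without control replicate 2, 263 without control replicate 3 and 119 without posterior replicate 2. Separation of fewer libraries is easier to meet; beyond that the cause was not tested.

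By edgeR 0 members were called in any comparison. DESeq2 called 2 after head amputation and 14 after tail amputation, and limma-voom 0. Leaving out 1 library gave 0 to 10 after tail amputation (10 without control replicate 3), and 0 after head amputation and between the wounds. The cause was not tested. With a replicate block, edgeR called 1 member, comp1757_c0, after tail amputation (adjusted p = 0.0266) and 0 in the other comparisons. After tail amputation 8 of the 21322 components were called in that fit, in either direction. The labels state no pairing behind this block. Deviations correlated above 0.1 in 5 of the 9 pairs that share a number, and 5 of the 9 libraries had their closest match under their own number. Between control and posterior libraries all 3 such pairs did, at 0.103, 0.347 and 0.466. Between control and anterior libraries they stood at -0.31, 0.196 and 0.328, and between the wounds at -0.43, -0.03 and 0.04. The median posterior log2 fold change of the members was -0.65 and ran from -0.75 (without control replicate 2) to -0.45 (without control replicate 1), and the anterior one from -0.63 to -0.39. The median difference between the wounds stayed above 0, from 0.0027 without posterior replicate 2 to 0.18 without posterior replicate 3. Of 585 fold changes of 20 named members under alternatives, 570 moved by less than the replicate SD or kept their side of the threshold, 15 moved by more and 0 changed sign. Members had as few as 28 reads in a library, and the part of counting error in their values was not tested.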

Other observations

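A subset of the members shared a profile within the wounded groups, noticed after the values were seen and not tested. At 9 of the 79 (11.4%) the 3 lowest wounded libraries were anterior replicate 2 and posterior replicates 2 and 3, as at 1.45% of the components of the same range of levels. Both shares are by CPM without further scaling, and the rule required every wounded library of a member to lie below the controls. The part of the scaling and of the rule in the difference between the shares was not tested. At comp174_c0 (617 bases) these 3 libraries stood at 4.16, 4.10 and 4.20 CPM and the other wounded libraries at 8.57, 8.77 and 9.05 CPM, with controls at 9.83, 10.3 and 11.1 CPM. At comp219_c0 (766 bases) they stood at 4.40, 3.71 and 4.08 CPM, against 8.11, 7.43 and 7.35 CPM and controls at 8.48, 9.66 and 10.4 CPM. At these 2 components the wounded libraries thus fell into 2 groups, with libraries of both wounds in each. The higher group stood at 84.4% of the control mean at comp174_c0 and 80.3% at comp219_c0, and the lower group at 39.9% and 42.8%. The ratio between the 2 kinds of wounded library was 2.12 at comp174_c0, 2.00 at comp22_c0, 1.88 at comp219_c0 and 1.70 at comp239_c0, and 1.07 to 1.61 at the other 5.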
